A study of Mus musculus with 50 samples.

Results

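Across ozone-exposed and air-exposed mouse lung, 7 probe identifiers stood among the most counted of the whole-transcriptome assay, and they are described here through every segment. They are RTS0067799, RTS0067777, RTS0067780, RTS0064052, RTS0070220, RTS0067779 and RTS0080807, 7 of 20175 identifiers in the main number range of the files. They were chosen by their measured abundance, as the most abundant identifiers left once some other leading identifiers had been set aside. Their levels are therefore a description and carry no test. The identifiers were not matched to gene names, genome positions or probe sequences here, so no gene or role is given for any of them. What is described is where each is abundant, which others it moves with, and how it differs between macrophage and non-immune tissue, between injured and peri-injured regions, and between animals.

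The study compared 4 lung sections, each carrying 1 study identifier and taken as 1 animal. An old section came from a mouse of 80 weeks with the SP-CI73T mutant genotype, and a young mutant section from a mouse of 12 weeks with the same genotype. A wild type ozone section and a wild type air section came from SP-C wild type mice of 12 weeks. The 3 ozone sections were taken 72 h after 3 h at 0.8 ppm of ozone, and the control breathed filtered air. All mice lived in a germ-free facility. The control samples are air samples by their titles and time point, which were followed here, whereas their treatment label names ozone. For the old section the genotype is that of the sample labels, since the series design leaves it out. The sources used here do not say how the mutant allele was made or driven. Each ozone section held injured and peri-injured regions, 3 of each in both mutant sections and 4 of each in wild type, and the air section held 4 healthy regions. The sources used here do not say how a region was called injured or peri-injured. In each of the 24 regions a CD68+ segment (the macrophages, positive for CD45 and CD68) and a CD45- segment (other nucleated cells) were collected apart, which gave 48 segments.

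Digital spatial profiling hybridises barcoded probes to a stained section and releases the barcodes of chosen areas with light. The released barcodes are then sequenced and counted, so that a count stands for a captured probe and not for a read along a transcript. CD68 is a glycoprotein of macrophage lysosomes and CD45 is carried by nearly all blood-derived cells. SP-C is a surfactant protein made by alveolar type 2 cells, and the I73T change in it is known in people as a cause of misrouted protein and of lung fibrosis. Ozone injures the airway and the alveolar surface, and macrophages gather where the damage is. A level in a segment mixes the number of cells of each type with the RNA per cell, and fewer cells of a type and less RNA per cell cannot be told apart. The staining thresholds defined the segments, and the segments were not checked against the CD68 and CD45 probes, since no identifier was matched to a gene.

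The CD68+ segments held 20043 to 101968 counts and the CD45- segments 32705 to 300708 counts. A member rested on 39 to 3053 counts in a segment. RTS0067779 with 39 counts in 1 injured CD68+ segment of the young mutant stood at 1933 CPM (counts scaled to 1e6 a segment), with a 95% Wilson interval of 1414 to 2641 CPM. RTS0067799 with 3053 counts in 1 injured CD45- segment of the wild type stood at 10153 CPM, with an interval of 9801 to 10517 CPM. Such intervals cover counting error only. The 2 control wells without template held 4 and 229 counts, and no member had a count in either. In the well with 229 counts that 0 allows a share of up to 1.31%, so the wells say little about a background for the members. The wild type sections lay on 1 collection plate and the mutant sections on another, so plate and genotype cannot be told apart. A single sequencing run held all libraries.

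Together the members took 3.93% ± 0.376 of the counts in CD68+ segments and 4.20% ± 0.216 in CD45- segments (SD, n = 24 each). The lowest summed share was 3.08%, in an injured CD68+ segment of the young mutant, and the highest was 4.65%, in an injured CD68+ segment of the wild type after ozone. In the CD68+ segments the mean share was 4.14% in the old mutant, 3.87% in the young mutant, 3.78% in wild type after ozone and 3.97% in air. In the CD45- segments it was 4.03% in the old mutant, 4.43% in the young mutant, 4.16% in wild type after ozone and 4.20% in air. The section means thus stayed within a narrow band, and the movement described below lies between members more than in their sum.

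Over the 48 segments RTS0067799 averaged 10680.4 ± 1491 CPM, RTS0067777 8745 ± 1444 CPM, RTS0067780 6023 ± 1018 CPM and RTS0064052 4832 ± 589 CPM. RTS0070220 averaged 3941 ± 1440.0 CPM, RTS0067779 3456 ± 543 CPM and RTS0080807 2956 ± 1057 CPM (SD, n = 48). These are probe counts, which depend on the probe as well as on the transcript, so the order is one of counts and not of RNA per length. By this mean they held ranks 2, 4, 5, 6, 8, 9 and 10 of all identifiers. The identifiers RTS0076370, RTS0076055 and RTS0076369 held ranks 1, 3 and 7 and are not members. RTS0080807, the last inside, had 2956 CPM, against 2442 CPM for RTS0076368 and 2249 CPM for RTS0067781 just outside. The median identifier averaged 32.4 CPM.

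The upper part of that order was steady and the lower part was not. RTS0067799 had more counts than each of the other 6 members in all 48 segments, and was the first or second of all identifiers in each of them. RTS0067777 exceeded RTS0067780 in 48 of 48 segments, and RTS0067780 exceeded RTS0064052 in 43. The gaps between neighbours from RTS0067799 to RTS0064052 were larger than the larger of their SDs over segments. RTS0064052 and RTS0070220, RTS0070220 and RTS0067779, and RTS0067779 and RTS0080807 did not differ beyond that spread. RTS0070220 exceeded RTS0067779 in 18 of 24 CD68+ segments but in only 5 of 24 CD45- segments. RTS0080807 exceeded RTS0067779 in 16 of 24 CD68+ segments and in 4 of 24 CD45- segments. The order at the lower end therefore turned with the kind of segment. In 1 CD68+ segment of the wild type after ozone RTS0070220 held the second rank of all identifiers, with 9411 CPM, whereas in 1 air CD45- segment it ranked 14.

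**Figure D1:**
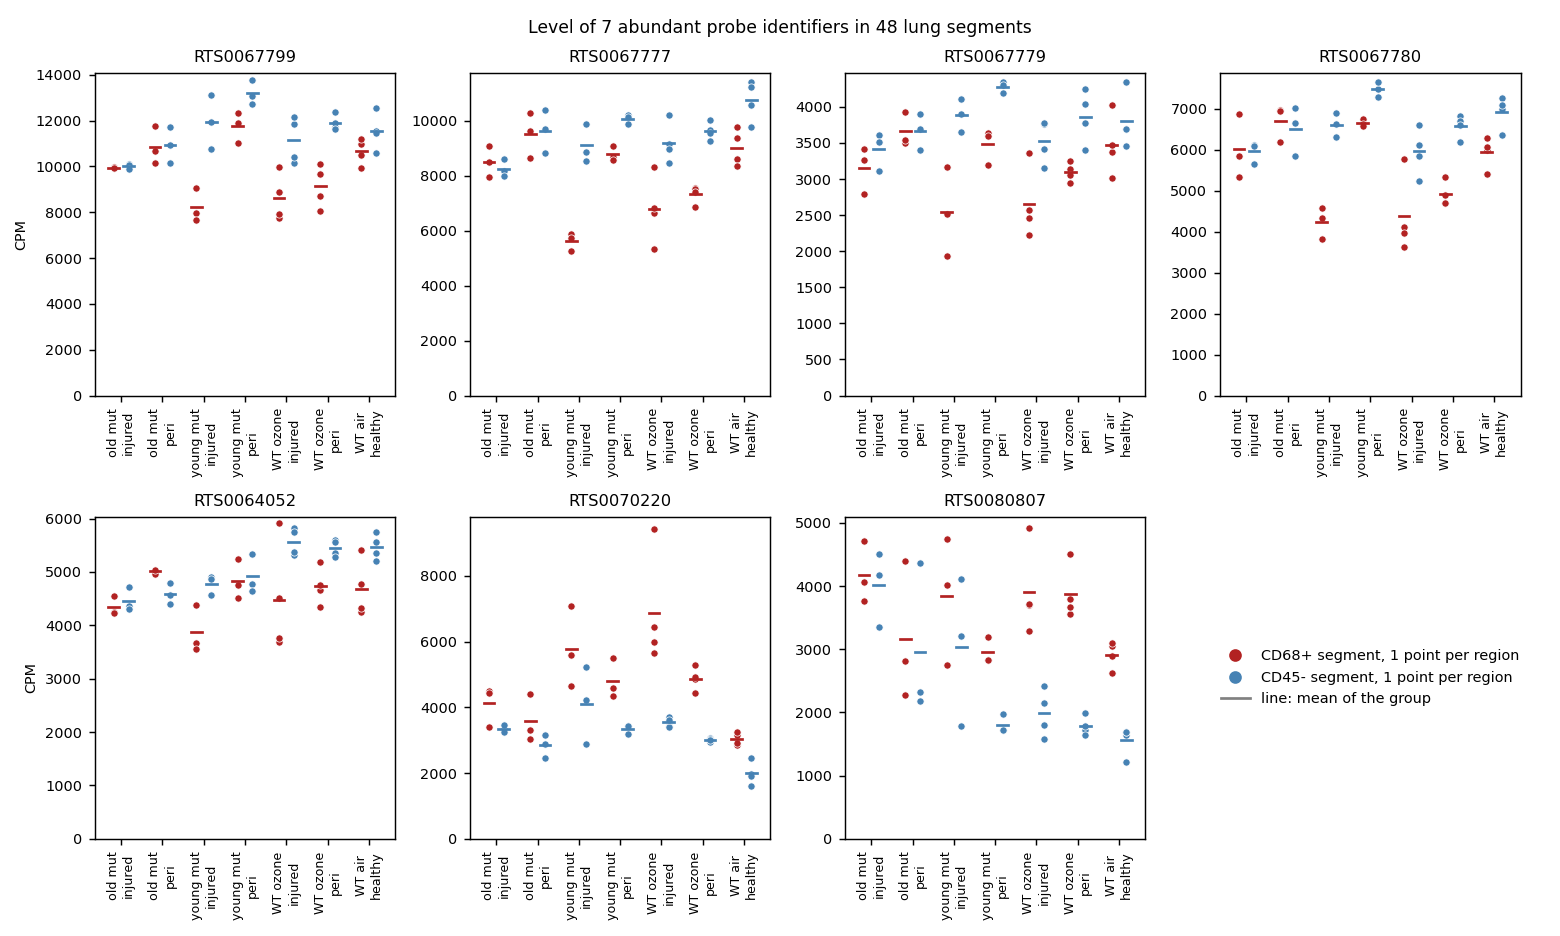
CPM of each member (y axis, starting at 0) in the 7 groups of regions (x axis), with CD68+ segments in red on the left of CD45- segments in blue. Each point is 1 region and each line a group mean. For RTS0070220 the red points lie above the blue ones in most groups, while for RTS0067777 they lie below them in the young mutant and wild type sections and level with them in the old mutant.

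The members fell into 5 that were level or lower in macrophage segments and 2 that were higher there. RTS0080807 was higher in CD68+ than in CD45- segments by 0.66 on the log2 scale (SE 0.18, edgeR adjusted p = 0.0424), a fold of 1.58. RTS0070220 was higher by 0.60 (SE 0.17), which did not pass (edgeR adjusted p = 0.0567). RTS0067799, RTS0067777, RTS0067779, RTS0067780 and RTS0064052 had differences of -0.06 to -0.17, with edgeR adjusted p-values of 0.808 to 0.954. So 1 of 7 members passed, against 2.98% of the 14591 identifiers tested (435 called, 274 higher and 161 lower). The median difference of the members was -0.11, and that of all identifiers tested was 0.00. The split into 5 and 2 was made after the values were seen and has no test of its own.

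This comparison summed the counts of each section and segment, giving 8 sums from 4 animals with the section as a block. The call of RTS0080807 was lost when any of 3 sections was left out, though not always with a smaller difference. Without the wild type ozone section its difference was 0.50 with an edgeR adjusted p of 0.410, without the young mutant section it was 0.69 with an adjusted p of 0.160, and without the air section 0.56 with 0.067. The call was lost with DESeq2 (0.66, adjusted p = 0.098), without a filter on low counts (0.66, edgeR adjusted p = 0.0564) and without the segments under 50000 counts (0.69, edgeR adjusted p = 0.150), while the direction held in all 35 alternatives.

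Region by region, the CD68+ segment of RTS0070220 exceeded the CD45- segment of the same region in 24 of 24 regions. On plain CPM, the log2 ratio of CD68+ over CD45- ran from 0.03 to 0.48 in the old mutant, from 0.35 to 0.69 in the young mutant, from 0.59 to 1.38 in wild type after ozone and from 0.40 to 0.83 in air. In air it stood at 3153, 2858.5, 3257 and 2913.5 CPM in CD68+ segments, against 1958, 1603, 2470.0 and 1926 CPM in CD45- segments of the same regions in the same order. No CD68+ segment there was as low as any CD45- segment, which also held for 22.2% of 248 identifiers.

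RTS0080807 was higher in the CD68+ segment in 21 of 24 regions. The mean fold of CD68+ over CD45- was 1.06 in the old mutant, 1.46 in the young mutant, 2.06 in wild type after ozone and 1.88 in air. All 12 wild type regions had a higher CD68+ value, and the 3 exceptions were 2 regions of the old mutant and 1 injured region of the young mutant. In air the CD68+ segments had 3049.5, 2620.3, 3092 and 2888 CPM, against 1640.4, 1687, 1683 and 1223 CPM in the CD45- segments, likewise with no overlap. In the old mutant the median was 3916 CPM in CD68+ segments (range 2272 to 4711) and 3765 CPM in CD45- segments (range 2182 to 4503). Its CD45- segments thus held as much of this probe as its CD68+ segments, which in the wild type sections they did not. Whether the fold differs between sections was not tested, since each condition is 1 animal.

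By the mean fold, the 5 other members showed the opposite side in 3 of the sections. In air this was not so in every region, and RTS0067779 was lower in only 2 of 4 there. RTS0067777 was lower in the CD68+ segment in 23 of 24 regions, RTS0067799, RTS0067779 and RTS0067780 in 20, and RTS0064052 in 18. In wild type after ozone RTS0067777 had a median of 7140 CPM in CD68+ segments (range 5342 to 8337) and of 9399 CPM in CD45- segments (range 8477 to 10222), so that the ranges did not overlap, with CD68+ the lower, as for 4.17% of 959 identifiers. Its mean fold of CD68+ over CD45- was 1.01 in the old mutant, 0.734 in the young mutant, 0.746 in wild type after ozone and 0.839 in air. In the old mutant the folds of the 4 others lay between 0.961 and 1.03. RTS0067799 was the closest to level there, and its 6 regions had log2 ratios between -0.04 and 0.01.

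These ratios are of plain CPM, in which an identifier that takes many counts lowers all others. The fit scales the summed counts with TMM. Its median difference over all identifiers tested was 0.00, and there the 5 differed by no more than 0.17. With regions as libraries and the section as a block all 7 members passed, the 5 as lower and the 2 as higher. In that fit 930 of the 14591 identifiers were called, and the median of all identifiers tested moved to -0.19. Both segments of a region carry its number. With the region as a replicate block 6 of 7 members passed, RTS0064052 being the exception, and 847 of the 14591 identifiers were called. Regions of 1 section share an animal, so the p-values of both fits are too small. The direction of each of the 5 held in all 35 alternatives.

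**Figure D2:**
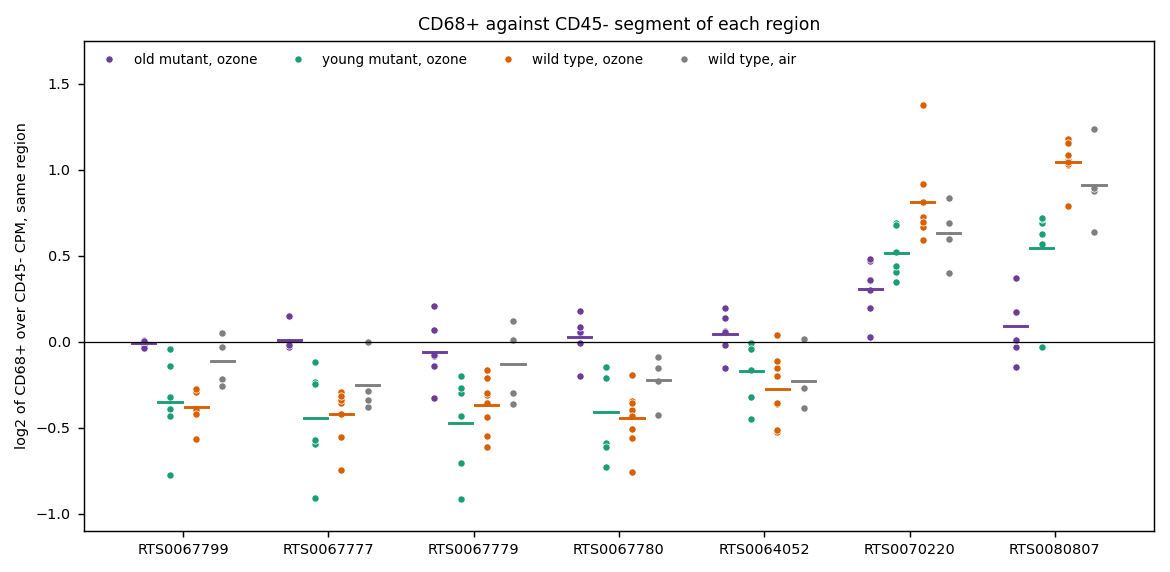
Log2 of the CD68+ over the CD45- CPM of the same region (y axis) for the 7 members (x axis), coloured by section. Points are regions and short lines section means. RTS0070220 and RTS0080807 lie above 0 in the wild type sections, the other 5 lie mostly below it, and the old mutant regions lie closest to 0.

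The same 5 and 2 also varied together from segment to segment. Among the 24 CD68+ segments Pearson's r of TMM-scaled log2 CPM between the 5 was 0.69 to 0.91 (10 pairs, median 0.87). Among the 24 CD45- segments it was 0.41 to 0.90 (median 0.73). RTS0070220 and RTS0080807 had r = 0.67 in CD68+ and r = 0.69 in CD45- segments. Between the 5 and the 2 it was -0.21 to 0.42 in CD68+ segments, with a median of 0.09. In CD45- segments the 2 parted on this scale, since RTS0070220 had r of 0.44 to 0.68 with the 5 and RTS0080807 r of -0.12 to 0.22. The r between members was not computed on plain CPM. On plain CPM RTS0067777 had its highest CD45- section median in air (10907 CPM), where RTS0070220 had its lowest (1942 CPM). These values describe segments that share sections, libraries and a common total, and carry no p.

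**Figure D3:**
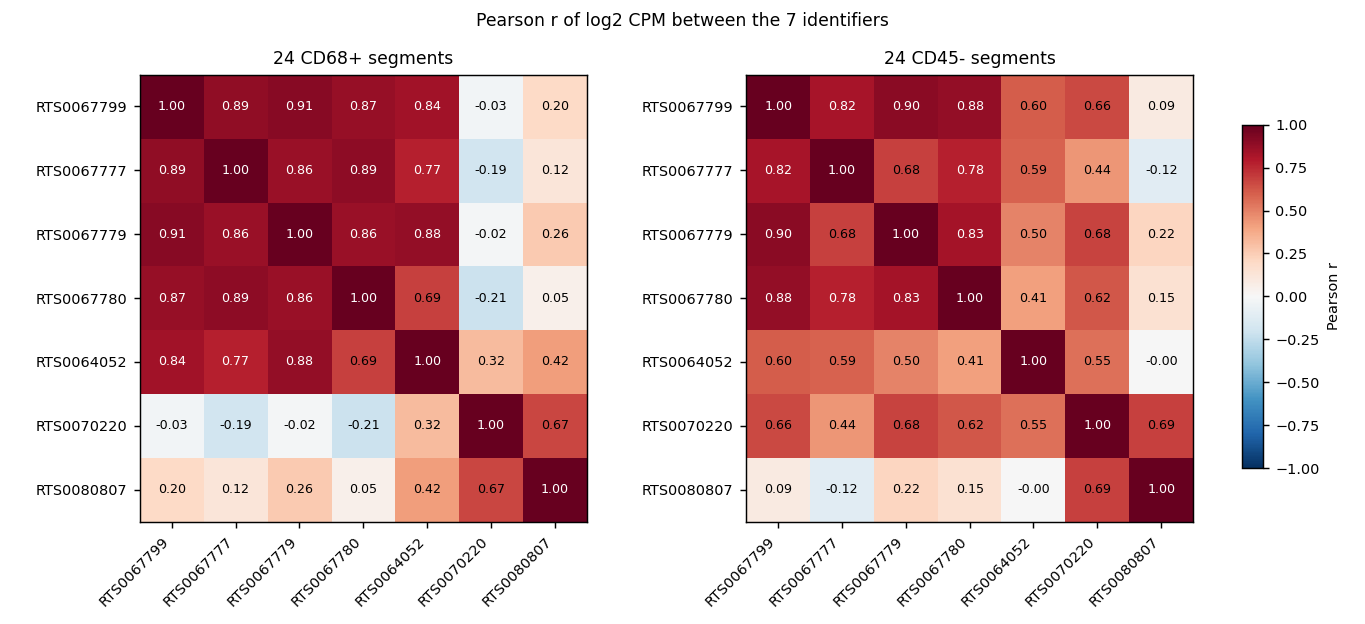
Pearson's r of TMM-scaled log2 CPM between members over 24 CD68+ segments (left) and 24 CD45- segments (right), written in each square. The block of 5 at the upper left runs from 0.69 to 0.91 in CD68+ segments. On this scale the r of RTS0070220 with the 5 is 0.44 to 0.68 in CD45- segments.

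Ratios between members give the same picture of the 5 on a scale free of the total. The count of RTS0067799 over that of RTS0067779 was 2.63 to 4.13 over the 48 segments, with a median of 3.08 and a coefficient of variation (CV) of 8.92%. RTS0067777 over RTS0067780 had a median of 1.46 and a CV of 8.69%. RTS0067799 over RTS0080807 ran from 1.58 to 9.38 with a CV of 48.6%, and RTS0067799 over RTS0070220 from 1.06 to 6.61 with a CV of 41.7%. The 2 were held less closely to each other than the 5 were, with a CV of 28.6% for RTS0070220 over RTS0080807. In CD45- segments that CV was 28.6% as well, against 26.7% for RTS0070220 over RTS0067779. RTS0064052 was the loosest of the 5, with a CV of 14.7% against RTS0067780. The proportions among RTS0067799, RTS0067777, RTS0067779 and RTS0067780 were held far closer than those with either of the 2 others.

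Of 268 other identifiers with a mean of at least 20 counts a segment, the one most like each member was sought. The measure was Pearson's r of TMM-scaled log2 CPM over the 48 segments. For all 5 it was RTS0067781, with r = 0.92 for RTS0067799, 0.92 for RTS0067777, 0.94 for RTS0067779, 0.87 for RTS0067780 and 0.88 for RTS0064052. RTS0067781 ranked 12 in abundance, with 2249 CPM. For RTS0070220 it was RTS0067336 (r = 0.81, mean 1506 CPM) and for RTS0080807 it was RTS0075734 (r = 0.83, mean 1039.7 CPM). The numbers of RTS0067777, RTS0067779, RTS0067780 and RTS0067781 lie next to each other, yet RTS0067778 between them averaged 30.2 CPM and ranked 11284. RTS0067782, the next number, averaged 46.9 CPM. Beside RTS0067799, the numbers RTS0067798 and RTS0067800 averaged 61.5 and 25.3 CPM, while RTS0067797 and RTS0067801 averaged 569 and 768 CPM. Some numbers close to a member were thus abundant and others were not, and the sources used here do not say what the numbering stands for.

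In injured non-immune tissue RTS0080807 rose, and no other member passed the test. In CD45- segments it was higher in injured than in peri-injured regions by 0.56 on the log2 scale (SE 0.11, edgeR adjusted p = 0.00898), a fold of 1.48. RTS0070220 was higher by 0.34 (SE 0.10), which did not pass (edgeR adjusted p = 0.190). The 5 others had differences of -0.12 to 0.02, the lowest edgeR adjusted p among them being 0.886. So 1 of 7 members passed, against 0.347% of the 16703 identifiers tested (58 called, 34 higher and 24 lower). The median difference of the members was -0.09, against 0.00 for all identifiers tested.

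The injured CD45- segments of the young mutant held 3202, 4105 and 1786 CPM of RTS0080807, against 1978, 1728 and 1720.0 CPM in its peri-injured CD45- segments. In 2 of the 3 injured regions the level was above every peri-injured one, and the third lay among them. The injured CD45- segments of the old mutant held 4503, 4181 and 3348 CPM, against 4364, 2182 and 2318 CPM in its peri-injured ones. A single peri-injured region of the old mutant was thus as high as the injured ones. The injured CD45- segments of the wild type held 2414, 1583, 1806 and 2148 CPM, against 1724, 1644, 1789 and 1989 CPM in peri-injured ones, and the groups overlapped. The folds of the means were 1.36 in the old mutant, 1.68 in the young mutant and 1.11 in wild type.

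That call was lost without either mutant section, though only one of them lowered the difference. Without the young mutant section it was 0.36 with an edgeR adjusted p of 0.139, and without the old mutant section it was 0.60 with an edgeR adjusted p of 0.112. Without the wild type section it was 0.74 and RTS0070220 passed as well (0.39, edgeR adjusted p = 0.00429). It did not pass with DESeq2 (0.56, adjusted p = 1.000), with upper quartile scaling (0.57, edgeR adjusted p = 0.055) or with regions as libraries (0.49, edgeR adjusted p = 0.091), although the first 2 left the difference where it was. It passed in 14 of the 20 fits that left out 1 region.

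In the mutant sections RTS0070220 had smaller differences than RTS0080807, and in wild type larger ones, with folds of 1.18 in CD45- and 1.41 in CD68+ segments, against 1.11 and 1.01 for RTS0080807. In wild type after ozone its injured CD45- segments held 3425, 3406, 3703 and 3624 CPM, against 2949, 3052, 3049 and 2998 CPM in peri-injured ones. All 4 injured values stood above all 4 peri-injured ones, as they did for 1.61% of 2108 identifiers. In the CD68+ segments of that section injured regions held 5659, 6439, 5979 and 9411 CPM, against 4439.6, 4846, 4936 and 5272 CPM in peri-injured regions. Again all injured values were the higher ones, as for 3.01% of 465 identifiers. In the old mutant the injured CD45- segments held 3352, 3255 and 3456 CPM, against 3159, 2464 and 2897 CPM in peri-injured ones, also without overlap, as for 8.62% of 1323 identifiers. In the young mutant they held 4229, 5231 and 2887 CPM, against 3433, 3198 and 3421 CPM in peri-injured ones, and here 1 injured region lay below all peri-injured ones. Counted over the 3 sections, 9 of 10 injured CD45- segments and 8 of 10 injured CD68+ segments lay above every peri-injured segment of their section. At least as many did so for 0.414% of 1451 identifiers in CD45- and for 1.79% of 336 in CD68+ segments. In wild type the injured CD45- segments were also deeper, at 144301 to 300708 counts against 103077 to 118350 in peri-injured ones. The same held in the old mutant, at 108606 to 120964 against 56822 to 88025 counts. In the young mutant the injured CD45- segment with 2887 CPM had 74468 counts, the fewest of that section's CD45- segments. What part depth has in these CD45- differences was not tested.

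Among CD68+ segments no member passed for injury, against 0.535% of the 3176 identifiers tested (17 called, 9 higher and 8 lower). By edgeR 227 identifiers had an unadjusted p under 0.05, and DESeq2 called 3 with no member among them. RTS0080807 differed by 0.34 (SE 0.15, edgeR adjusted p = 0.603) and RTS0070220 by 0.32 (SE 0.15, edgeR adjusted p = 0.612). The other 5 differed by -0.14 to -0.29, the furthest being RTS0067780 (SE 0.14, edgeR adjusted p = 0.692). The median of the members was -0.20 and that of all identifiers tested was 0.01. The directions of all 7 members held in all 28 alternatives.

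Within the CD68+ segments the young mutant section stood apart. Its injured segments held 5889, 5748 and 5272 CPM of RTS0067777, against 8681, 8575 and 9099.7 CPM in its peri-injured ones, a fold of 0.642 with no overlap. The 4 related members had folds of 0.637 for RTS0067780, 0.701 for RTS0067799, 0.730 for RTS0067779 and 0.801 for RTS0064052, each without overlap. In these segments injured values lay below all peri-injured ones for 13.1% of 222 identifiers. In the same 3 injured segments the identifier RTS0076055 took 7.21%, 8.68% and 15.9% of the counts, against 0.0383% to 0.205% in the peri-injured ones. With the counts of RTS0076055 taken out of the total, a step chosen after its share had been seen, the fold of RTS0067777 was 0.717, that of RTS0067780 0.714 and that of RTS0067799 0.783, each still without overlap, as then for 10.9% of 221 identifiers. The folds of RTS0067779 and RTS0064052 were then 0.816 and 0.894, with overlap. On the same footing the injured segments of that section held more of RTS0070220 (fold 1.34) and RTS0080807 (fold 1.44), each without overlap as for 13.6% of the 221, where the plain CPM gave folds of 1.20 and 1.30 with overlap.

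In the old mutant, where RTS0076055 took 0.598% to 2.74% of injured CD68+ counts, the folds of the 5 lay between 0.863 and 0.915. There RTS0067799, RTS0067779 and RTS0064052 were lower in injured segments without overlap, as were 8.29% of 350 identifiers. With the counts of RTS0076055 taken out, RTS0067779 and RTS0064052 were still without overlap, as then for 7.74% of 349. In wild type after ozone, where RTS0076055 took at most 0.213%, the folds of the 5 lay between 0.858 and 0.946. In all 3 sections each of the 5 had a lower mean in the injured CD68+ segments, with overlap between regions in each case in wild type.

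**Figure D4:**
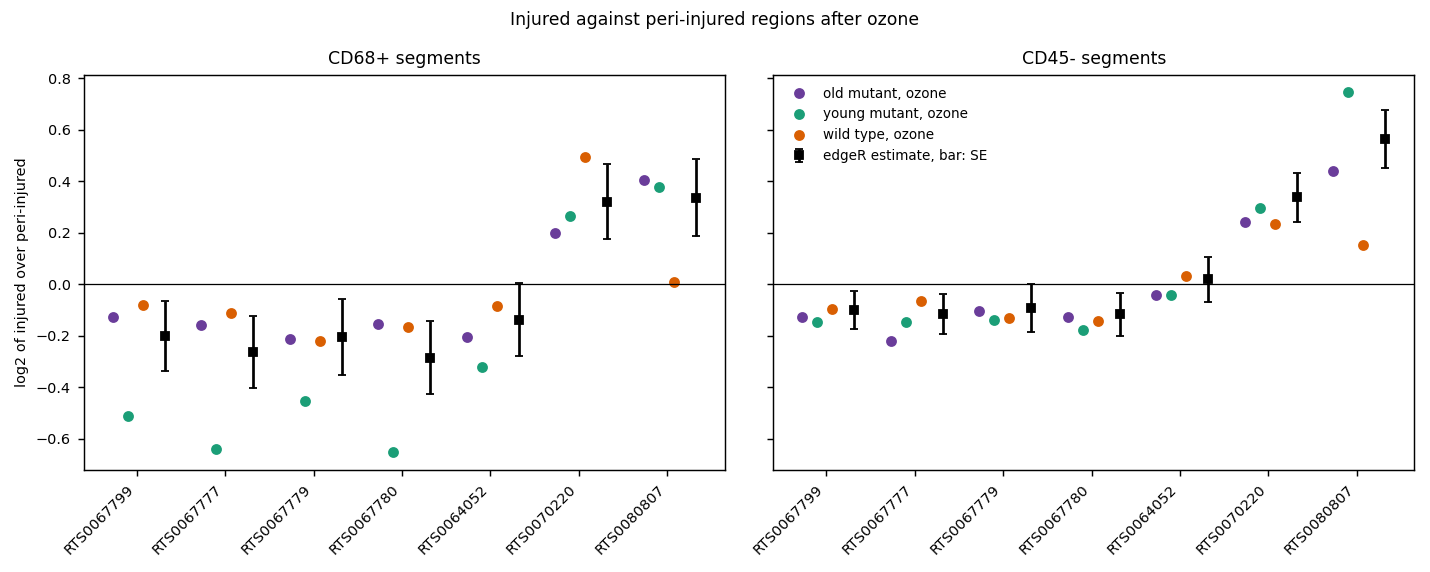
Log2 of injured over peri-injured level (y axis) for each member (x axis) in CD68+ segments (left) and CD45- segments (right). Coloured points are ratios of mean plain CPM in single sections, and black squares with SE bars are the edgeR estimates on TMM-scaled sums. The squares of RTS0070220 and RTS0080807 lie above 0 in both panels, with 0.56 for RTS0080807 in CD45- segments, and the young mutant points of the other 5 lie lowest in CD68+ segments.

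Whether injury acted differently in the 2 kinds of segment was tested as an interaction over 12 sums. No member passed, against 0.0644% of the 9319 identifiers tested (6 called, 4 higher and 2 lower). By edgeR 427 identifiers had an unadjusted p under 0.05, and DESeq2 called 0. The difference of differences, CD68+ less CD45-, was -0.16 for RTS0080807 (SE 0.20, edgeR adjusted p = 0.998) and 0.05 for RTS0070220 (SE 0.18, edgeR adjusted p = 0.999). For the 5 others it was -0.03 to -0.10, with SEs of 0.16 to 0.18. A difference in response between macrophage and non-immune segments was thus not shown for RTS0080807, although it passed in only one of them.

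The conditions themselves were 1 animal each, so the differences between sections are descriptions without a test. A member was counted as different where the mean log2 CPM over regions differed by at least 1 and no region of one section overlapped those of the other. No member met this in any of the 6 comparisons. Some did not overlap while differing by less.

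For the old against the young mutant, 3 of 287 identifiers (1.05%) met the rule in CD68+ segments and 2.44% did not overlap. In CD45- segments 0.0737% of 1356 met it and 1.40% did not overlap. RTS0070220 was the 1 member of 7 without overlap in each, and it was lower in the old mutant by -0.51 in CD68+ and by -0.39 in CD45- segments. Its plain CPM in CD68+ segments had a median of 3914 in the old mutant (range 3036 to 4504) and of 5071 in the young mutant (range 4353 to 7086). These plain CD68+ values overlap slightly. In CD45- segments the plain median was 3207 CPM in the old mutant (range 2464 to 3456). In the young mutant it was 3427 CPM (range 2887 to 5231), so those ranges overlap widely. The lack of overlap holds for the TMM-scaled values, in all 16 alternatives for CD68+ but in 7 of 16 for CD45- segments. RTS0080807 differed the other way in CD45- segments, by 0.41, with a median of 3765 CPM in the old mutant and of 1882 CPM in the young mutant. Its ranges overlapped, at 2182 to 4503 CPM in the old mutant and 1720.0 to 4105 CPM in the young mutant. RTS0067799, RTS0067777, RTS0067779, RTS0067780 and RTS0064052 were lower in the old mutant by -0.24 to -0.40 in CD45- segments, with overlap, and differed by 0.02 to 0.29 in CD68+ segments.

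For the young mutant against wild type after ozone, 4.34% of 392 identifiers met the rule in CD68+ segments and 6.12% did not overlap. In CD45- segments 1.84% of 2502 met it and 3.20% did not overlap. All 7 members overlapped in both kinds of segment. RTS0080807 differed by -0.12 in CD68+ and by 0.38 in CD45- segments, and RTS0070220 by -0.04 and 0.26. RTS0067780 was higher by 0.30 in CD68+ and by 0.26 in CD45- segments. With injured regions alone RTS0067777 differed by -0.21 in CD68+ segments, and with peri-injured regions alone by 0.32, so its direction turned with the kind of region. This comparison is also one of plates.

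For ozone against air in wild type mice, 5.66% of 477 identifiers met the rule in CD68+ segments and 9.85% did not overlap. In CD45- segments 3.57% of 1819 met it and 7.04% did not overlap. RTS0070220 was higher after ozone in both, by 0.75 in CD68+ and by 0.63 in CD45- segments, without overlap, and this held in all 16 alternatives of each. With injured regions alone the CD68+ difference was 1.00, which just meets the rule. More identifiers met the rule in that setting than with both region types, by the counts in the closing section. A single injured CD68+ segment stood at 9411 CPM, and the others at 5659 to 6439 CPM. Its CD68+ segments had a median of 5465 CPM after ozone (range 4439.6 to 9411), against 3033 CPM in air (range 2858.5 to 3257). Its CD45- segments had a median of 3229 CPM after ozone (range 2949 to 3703), against 1942 CPM in air (range 1603 to 2470.0). The depth of the CD45- segments differed as well, at 151496 ± 65444 counts after ozone (SD, n = 8), against 43142 ± 9803 counts in air (SD, n = 4). The r between the log2 plain CPM of RTS0070220 and the log2 total count was -0.03 over the 24 CD68+ segments and 0.85 over the 24 CD45- segments. What part depth has in the CD45- difference was not tested.

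RTS0067777 was the other member without overlap in CD68+ segments, lower after ozone by -0.51. Its median was 7140 CPM after ozone, against 8995 CPM in air, and the lack of overlap held in 7 of 16 alternatives. RTS0067780 had a difference of the same size, -0.51, with overlap. RTS0067799 and RTS0067779 each differed by -0.42 and RTS0064052 by -0.18. RTS0080807 was higher by 0.26 in CD68+ and by 0.17 in CD45- segments, with overlap. The last 2 comparisons share the wild type ozone section, and the first 2 share the young mutant section, so the same segments enter each pair with the opposite sign.

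**Figure D5:**
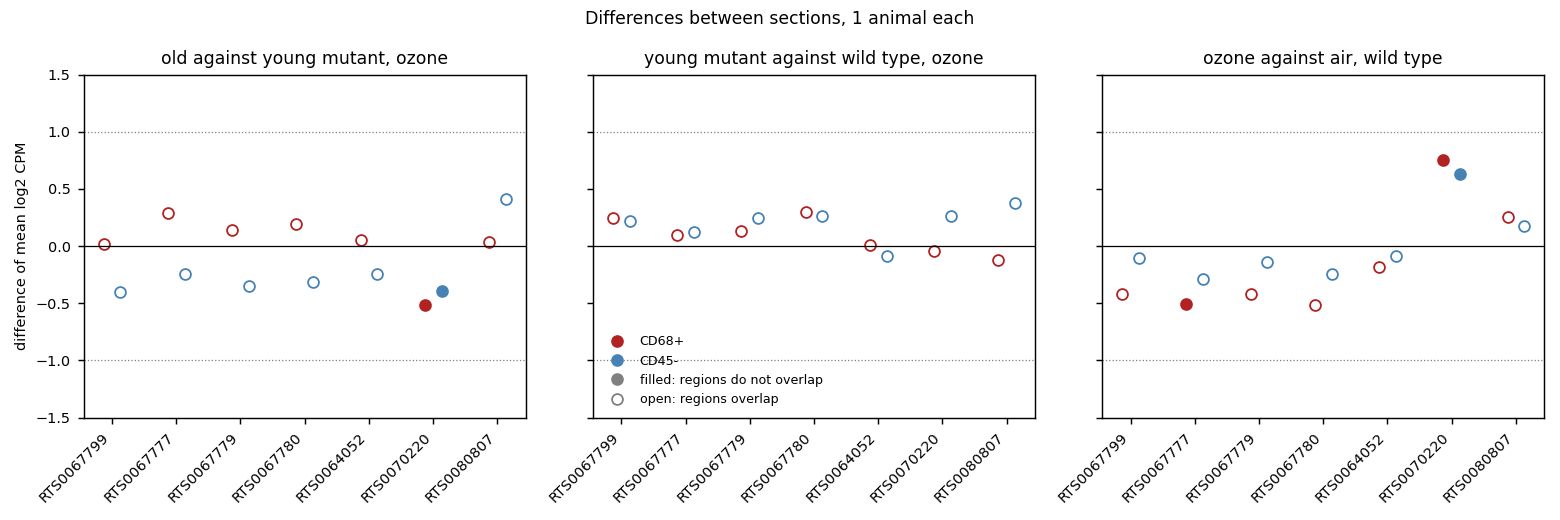
Difference of mean log2 CPM between sections (y axis) for each member (x axis), in red for CD68+ and blue for CD45- segments. Filled points mark regions without overlap, and dotted lines mark differences of 1 and -1. RTS0070220 is filled in the panels of old against young mutant and of ozone against air, with 0.75 in CD68+ segments for ozone against air, and no point passes a dotted line.

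Spread between regions of a group was near counting error for some members and well above it for others. For RTS0080807 in CD45- segments the median CV over the 7 groups was 14.9%, against 6.40% from counting alone, and the CV reached 41.4%. For RTS0070220 in CD68+ segments it was 14.8% against 7.46%. For RTS0064052 it was 7.69% against 7.62% in CD68+ segments, where 1 group reached 23.2%, and 4.26% against 4.11% in CD45- segments. The CV was above that of counting for RTS0080807 in all 7 CD45- groups, and for RTS0064052 in 3 of them. A CV from 3 or 4 regions can exceed the counting level by counting error alone. Whether the 3 groups of RTS0064052 hold spread beyond it was not tested.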

How the data were processed

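Counts of probe barcodes from 48 lung segments and 2 control wells were used as deposited. They are counts after removal of duplicate molecules by the GeoMx NGS Pipeline 2.3.4, per the file headers, and libraries were made with a mouse whole-transcriptome probe kit, per the labels' protocols. Identifiers not listed in a file were set to 0. The 20175 identifiers of the main number range were analysed, and 63 others, at most 0.0297% of a segment's counts, stayed out of the totals. CPM is the count over the segment's total, times 1e6, and Wilson intervals are at 95%.

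For tests, the counts of a section were added up by segment (8 sums), by region type (6 sums) or by both (12 sums). They were filtered with filterByExpr (minimum count 10), TMM-scaled and tested two-sided with edgeR 4.0.16 (glmQLFTest, section as a block, Benjamini-Hochberg over all identifiers, adjusted p under 0.05) in R 4.3.3. For differences between sections, and for r between identifiers or between segments, log2 CPM was TMM-scaled with a prior count of 2. Shares of identifiers without overlap within a section are of plain CPM after the same filter. The fits were tested on simulated data. Regions of 1 section share an animal, so the section was the replicate, and no label says more about independence. Both segments of a region come from 1 animal, which pairs them by region number. The median r of their deviations from the group mean was 0.123, against -0.0348 for segments of other regions. No segments of a group agreed within sampling noise (60 pairs, with a chi-square of at least 1.13 per degree of freedom).

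The text names the 7 members, the identifier most like each, and others where a member's result turns on them. Alternatives were upper quartile scaling, DESeq2 1.42.0, no filter, regions as libraries, exclusion of segments under 50000 counts or of RTS0076055, a prior count of 10, single region types, other totals for the share, and leaving out each section or region. Members, lists and tests were chosen with earlier results of these data known. Deposited worksheets and area values were not used.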

Additional observations from a re-analysis of the deposited data

Results flagged for a closer look

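RTS0080807 in air CD45- segments had 1 region of 4 far from the others, at 1223 CPM (40 counts) against 1640.4 to 1687 CPM in the other 3. Of 42 sets of 4 regions examined this was the only one with such a gap, and chance alone gives about 1 in 20. That segment is also the shallowest CD45- segment, with 32705 counts and a 95% Wilson interval of 898 to 1665 CPM for this value, which reaches into the range of the others.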

How the results depend on the processing

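Every comparison of members kept its direction for each member in the fits of segment and of injury under all alternatives run. The summed share of the members moved by less than 1 SD in each section under every alternative total and region left out, and all log2 differences between sections moved by less than the largest SD within a section.

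For CD68+ against CD45- segments the calls (435) became 140 with DESeq2, 930 with regions as libraries and 156 without segments under 50000 counts. The pairing by region number, as a replicate block, gave 847 calls and 6 members. With regions as libraries 684 of the 930 calls were lower, and with the replicate block 618, against 161 of 435. Members called (1) became 0 with DESeq2, without a filter and without shallow segments, 7 with regions as libraries and 2 without RTS0076055. Leaving out a section or region gave 138 (without wild type ozone) to 494 calls and 0 to 2 members. Of 24 fits without 1 region, RTS0080807 passed in 18.

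For injury in CD68+ segments the calls (17) became 3 with DESeq2, 52 without a filter and 28 with regions as libraries, and 1 to 33 with 1 section or region left out. In CD45- segments the calls (58) became 20 with upper quartile scaling (15 higher and 5 lower), 1 with DESeq2 and 27 with regions as libraries, each with 0 members, and 18 to 164 with 0 to 2 members with 1 section or region left out. Interaction calls (6) became 0 with DESeq2, 1 with regions as libraries and 1 to 16 when leaving out. The interaction of RTS0070220 was -0.019 with upper quartile scaling and -0.074 to 0.12 when leaving out; that of RTS0067799 was -0.078 to 0.023 over single regions, that of RTS0067777 -0.19 to 0.028 over sections, and that of RTS0067779 -0.13 to 0.0067.

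For ozone against air the counts were 13 in CD68+ and 23 in CD45- segments with a prior count of 10, 47 in CD68+ with injured regions alone (1 member, RTS0070220) and 37 in CD45- with peri-injured regions alone, and 26 to 47 and 58 to 132 with 1 region left out. For mutant against wild type they were 7 and 29 with a prior count of 10, 32 and 75 with peri-injured and 73 and 127 with injured regions alone. For old against young they were 1 and 0 with a prior count of 10, 6 and 17 with peri-injured, 31 and 22 with injured regions alone, and 2 to 6 and 1 to 4 with 1 region left out. The causes of these changes were not tested. Single region types leave fewer regions to overlap, and what part that has was not tested either. Exclusion of shallow segments was not run for injury in CD68+ segments or the interaction, since it left no peri-injured CD68+ segment of the young mutant. With 1 animal a condition and 39 counts behind the lowest member value, small differences could not be resolved.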
